A study of Mus musculus with 12 samples.

Results

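Ccr7, S1pr1 and Klf2 are genes by which T cells recirculate between blood, lymph and lymphoid tissue. They were taken by symbol from the probe table of the array, as 3 of the 19321 symbols it names. Each has 1 probe (M200001116 for Ccr7, M300016069 for S1pr1 and M400005068 for Klf2), and each probe was listed above background on 12 of 12 arrays. Cy5-labelled RNA from T cells sorted out of the lymphoid follicles of the gut wall known as Peyer's patches was hybridised to 12 single-colour Toray 3D-Gene mouse arrays. The cells came from pools of 3 to 5 C57BL/6 mice of both sexes, aged 10 weeks, with no treatment or genetic change named, and the stated purity after the sort was above 98%. The 4 fractions have 3 arrays each: γδ cells carry the γδ T cell receptor and no TCRβ, DN cells carry TCRβ without CD4 and CD8β, CD4 cells carry TCRβ and CD4, and CD8 cells carry TCRβ and CD8β. RNA was collected 3 times, but separate mice for each round are not stated, so a p-value here weighs only how these samples scatter, which may be technical.

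CCR7 is the receptor for CCL19 and CCL21, the chemokines of high endothelial venules and T cell zones, and it guides naive and central memory T cells into lymph nodes and Peyer's patches. S1PR1 senses sphingosine 1-phosphate, which is high in blood and lymph and low in tissue, and draws lymphocytes out of lymphoid organs. CD69 binds S1PR1 and removes it from the cell surface. KLF2 is a transcription factor of resting T cells that is needed for S1pr1 transcription, and FOXO1 supports the transcription of Klf2 and Ccr7. T cells that stay in tissue, such as the intraepithelial lymphocytes of the gut, are known for low Klf2, S1pr1 and Ccr7.

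The promoter of Klf2 is shown because genes of factors said to control Klf2 are on a list read below. It is the RefSeq window from 250 bases before to 50 bases after the gene's start, chr8:72318812-72319111 of build GRCm38.p6, plus strand, read 5′ to 3′. Capitals mark a match to a loose pattern for MEF2 sites (CTA, then 4 bases of any kind, then TAG) and to GGGGCGGGG, a GC box.
Klf2: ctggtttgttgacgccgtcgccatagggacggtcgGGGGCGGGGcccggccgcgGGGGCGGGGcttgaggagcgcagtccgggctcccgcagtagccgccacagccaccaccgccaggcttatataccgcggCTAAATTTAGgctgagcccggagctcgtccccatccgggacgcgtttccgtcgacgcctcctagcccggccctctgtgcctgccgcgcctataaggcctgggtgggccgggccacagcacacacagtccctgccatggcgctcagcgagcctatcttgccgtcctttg
Both strands were searched, and the matches do not overlap. The loose MEF2 pattern occurs 1 time here and in 3.69% of 32851 RefSeq promoter windows of the same length. As any 4 middle bases count, that is not the share of windows with a MEF2 site. The GC box occurs 2 times here and is present in 11.4% of the windows. The letters TGTTTAC, a pattern of FOXO sites, occur 0 times in this window and in 3.65% of all windows.

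A pair of libraries goes against its labels. The log2 signal of Cd8b1, which encodes the CD8β chain used in the sort, was 13.80 and 13.62 in CD8 2 and CD8 3 and 8.57 in the library labelled CD8 1, while the library labelled γδ 1 had 13.91 against 8.29 and 8.14 in γδ 2 and γδ 3. Cd163l1, known from γδ T cells as a scavenger receptor gene, had 8.23 in the library labelled CD8 1 and 6.11 in the library labelled γδ 1, against 8.57 and 8.48 in γδ 2 and γδ 3. The labels were kept, and the results on the 3 genes are given with and without these libraries. Replicate 1 of every fraction lies in array series H (4 arrays) and replicates 2 and 3 in series B (8 arrays). The median spot of an array lay at 70.8 to 77.9 intensity units and the mean of its blank spots at 58.6 to 62.2, and 18930 to 21394 of 23473 probes were listed per array. Precision is limited by the number of arrays.

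Ccr7, the chemokine receptor for entry, was high in 4 arrays, CD4 2, CD4 3, CD8 2 and CD8 3. Its log2 signal was 6.01, 6.29 and 6.26 in DN 1 to 3. It was 6.55, 7.78 and 7.67 in CD4 1 to 3. In CD8 2 and CD8 3 it was 7.73 and 7.76, and in γδ 2 and γδ 3 it was 6.12 and 6.07. The libraries labelled CD8 1 and γδ 1 had 5.94 and 6.63, so the first stood below every DN value and the second above CD4 1. On the linear scale of the deposited value table, where the median listed probe of each array is 25, the 4 high arrays had an intensity of 189 to 206. CD4 1 had 54.7, the DN arrays 16.8, 35.6 and 30.4, and γδ 2 and γδ 3 22.7 and 15.5. All DN values lay below all CD4 values, as for 13.9% of 16942 genes. CD4 1, of series H, was much nearer to DN than the other CD4 arrays were. Within series H the order of labels was γδ 1 (58.5), CD4 1 (54.7), DN 1 (16.8) and CD8 1 (12.1).

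S1pr1, the egress receptor, was bright in every array, with smaller steps between the fractions. Its log2 signal was 9.0, 9.09 and 9.12 in DN 1 to 3, within a narrow range. In CD4 1 to 3 it was 9.28, 9.40 and 9.95. The signal was 9.82 and 10.10 in CD8 2 and CD8 3 and 8.70 and 8.80 in γδ 2 and γδ 3. The libraries labelled CD8 1 and γδ 1 had 8.52 and 10.45, the lowest and the highest of all 12 arrays. Its intensity on the value table was 560 to 627 in DN, 733 to 1125 in CD4, 1055 and 1267 in CD8 2 and CD8 3, and 458 and 421 in γδ 2 and γδ 3. Leaving those 2 libraries aside, the DN values lay below all CD4 and CD8 values and above both γδ values, while the CD4 and CD8 ranges overlapped. Of all 16942 genes, 13.9% had all DN values below all CD4 values, 27.1% had them below both CD8 values and 18.6% above both γδ values. CD4 2 and CD4 3, both of series B, differed by 0.55, the widest gap between replicates 2 and 3 of a fraction for any of the 3 genes.

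Klf2, the transcription factor, was dim, with a range of 0.62 over the 12 arrays on the normalised log2 scale. Ccr7 had a range of 1.84 and S1pr1 of 1.93. The offset of 50 added in processing narrows the differences of dim genes, so these ranges are not like for like. Its log2 signal was 6.74, 6.43 and 6.38 in DN 1 to 3, and 6.62, 6.59 and 6.55 in CD4 1 to 3. CD8 2 and CD8 3 had 6.74 and 6.79, and γδ 2 and γδ 3 had 6.50 and 6.37. The libraries labelled CD8 1 and γδ 1 had 6.57 and 6.99, the second being the highest of all arrays. On the value table the intensity of Klf2 ran from 33.0 in γδ 3 to 94.2 in the library labelled γδ 1. There Ccr7 ran from 12.1 to 206 and S1pr1 from 421 to 2312. The DN and CD4 ranges overlapped, and DN 1, of series H, stood 0.33 above the mean of DN 2 and DN 3, which is more than the 0.067 between the means of DN and CD4.

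**Figure D1:**
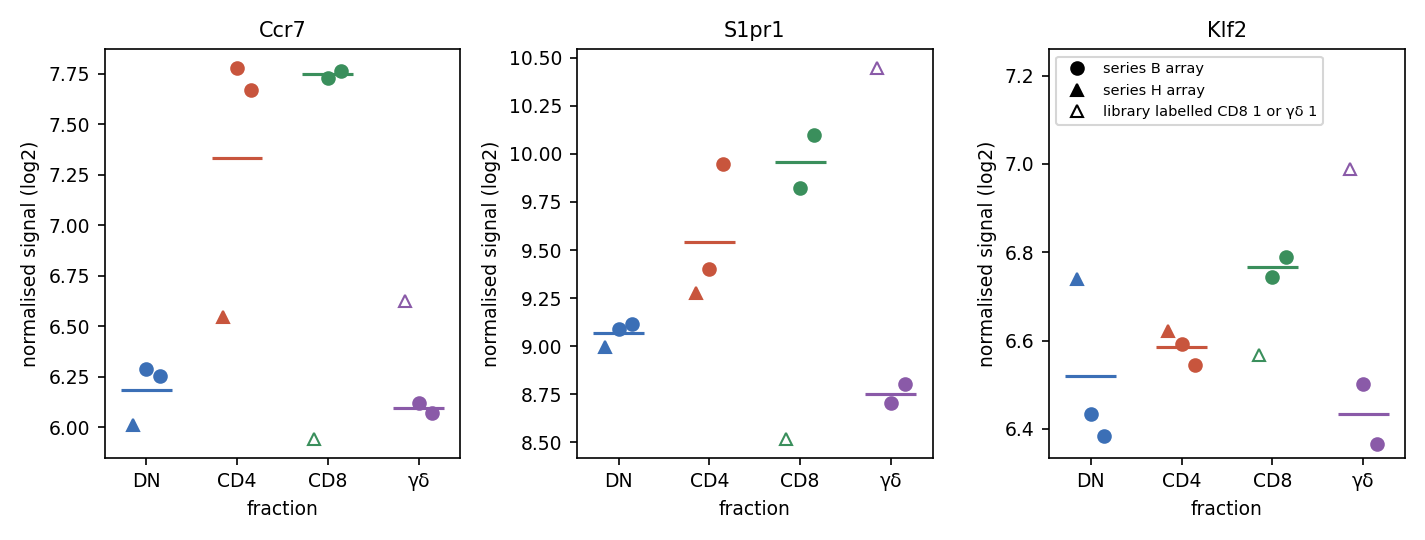
Normalised log2 signal of Ccr7, S1pr1 and Klf2 (y axis) in each array, by fraction (x axis). Each point is 1 array, circles are series B and triangles series H, open triangles are the libraries labelled CD8 1 and γδ 1, and bars are means without those 2. Ccr7 is high in CD4 2, CD4 3, CD8 2 and CD8 3 (7.67 to 7.78), S1pr1 rises in steps from γδ to DN, CD4 and CD8, and the open triangles lie outside the other points of their fraction in all 3 panels.

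As labelled, no fraction passed the test against another in these genes. Of 18 tests (3 genes in 6 comparisons), 0 passed limma's test at an adjusted p under 0.05, and 1 had an unadjusted p under 0.05, that of Ccr7 in DN vs CD4 (log2 difference -1.15, 95% interval -2.26 to -0.03, adjusted p = 0.338). None of the 18 passed on the value table, with median scaling, without background correction, without the filter on dim probes or with a block either. As background, 2.28% of 16942 genes passed in DN vs CD4, 1.07% in CD4 vs CD8, 1.15% in CD4 vs γδ, 0.0177% in DN vs CD8, 0.0118% in DN vs γδ and 0% in CD8 vs γδ.

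With those 2 libraries left out, Ccr7 and S1pr1 were higher in CD8 cells than in DN cells, and 5 of the 18 tests passed. DN and CD8 cells were sorted apart by CD8β, but they also differ in other genes given below, so the comparison is not one of CD8β alone. DN cells are not poor in Cd8a, the gene of the CD8α chain. Its log2 signal was 14.42, 14.35 and 14.22 in DN 1 to 3 and 13.85 and 13.49 in CD8 2 and CD8 3 (0.66 higher in DN, adjusted p = 0.0226 by limma). Leaving out the 2 libraries leaves CD8 and γδ without an array of series H, so comparing DN or CD4 with them also mixes the series. Mean Ccr7 on the value table was 27.6 ± 9.71 in DN (SD, n = 3) and 199 ± 3.11 in CD8 (n = 2), which is 7.22-fold higher in CD8. With replicates 2 and 3 alone it was 6.04-fold higher. Among the 10 arrays the log2 difference of Ccr7, DN minus CD8, was -1.56 (95% interval -2.35 to -0.77, adjusted p = 0.0233). Mean S1pr1 was 590 ± 33.7 in DN and 1161 ± 150 in CD8, 1.97-fold higher in CD8, with a log2 difference of -0.89 (-1.34 to -0.45, adjusted p = 0.0224). Klf2 differed by -0.25 (-0.49 to -0.0083, adjusted p = 0.175). In this comparison 6.95% of all genes were called higher in CD8. Within series B alone the differences were -1.47 for Ccr7, -0.86 for S1pr1 and -0.36 for Klf2; series H holds 1 array of each fraction and gives no spread. In bulk RNA, fewer cells with a transcript and less of it per cell cannot be told apart. With the replicate number as a block the difference of Klf2 was -0.31 and passed (adjusted p = 0.0357). The other calls were lost when DN 1, DN 2, DN 3, CD8 2 or CD8 3 was left out, with adjusted p of 0.0537, 0.0578, 0.062, 0.115 and 0.139 for Ccr7 and 0.0505, 0.0602, 0.0582, 0.065 and 0.17 for S1pr1, in that order.

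With those 2 libraries left out, CD8 cells had more Ccr7 and S1pr1 than γδ cells. As labelled the log2 differences, CD8 minus γδ, were 0.87 and 0.16, and neither passed. Mean S1pr1 on the value table was then lower in CD8 than in γδ (920 against 1064). Ccr7 was 10.4-fold higher in CD8 2 and CD8 3 than in γδ 2 and γδ 3 on the value table (199 ± 3.11 against 19.1 ± 5.09, n = 2 each). On the normalised scale, where the offset narrows the differences of a gene as dim as Ccr7 in γδ, the log2 difference, CD8 minus γδ, was 1.65 (95% interval 0.79 to 2.51, adjusted p = 0.0397). S1pr1 was 2.64-fold higher, at 1161 ± 150 against 440 ± 26.0, and differed by 1.21 (0.72 to 1.70, adjusted p = 0.0144). Klf2 differed by 0.33 (0.07 to 0.60, adjusted p = 0.15), and passed with the replicate block (adjusted p = 0.0417). Called higher in CD8 were 3.61% of all genes, and in 36.7% of all genes both CD8 values lay above both γδ values, as they did for these 3. All 4 arrays are of series B, so these are also the differences within that series. The call of Ccr7 was lost with median scaling (adjusted p = 0.0612) and when any 1 of CD8 2, CD8 3, γδ 2, γδ 3, DN 2, DN 3 or CD4 3 was left out (0.159, 0.188, 0.176, 0.199, 0.0724, 0.0732 and 0.0531). The call of S1pr1 was lost without CD8 3, γδ 2 or γδ 3 (0.106, 0.101 and 0.0823).

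With those 2 libraries left out, CD4 cells had more S1pr1 than γδ cells, and their higher S1pr1 and Ccr7 each passed the test in some settings only. As labelled the log2 differences, CD4 minus γδ, were 0.22 for S1pr1 and 1.06 for Ccr7 (adjusted p = 0.999 and 0.564). Mean S1pr1 on the value table was then lower in CD4 than in γδ (923 against 1064). Among the 10 arrays S1pr1 was 923 ± 196 in CD4 (n = 3) and 440 ± 26.0 in γδ (n = 2) on the value table. The log2 difference, CD4 minus γδ, was 0.79 (95% interval 0.34 to 1.23, adjusted p = 0.0449), where 4.37% of all genes were called higher in CD4. That call was lost with median scaling (adjusted p = 0.092), without the filter on dim probes (0.0508), and without DN 2, DN 3, CD4 2, CD8 2, CD8 3, γδ 2 or γδ 3 (0.0798, 0.0789, 0.0755, 0.0705, 0.0705, 0.26 and 0.193). Ccr7 was 150 ± 82.8 in CD4 and 19.1 ± 5.09 in γδ, with a log2 difference of 1.24 (0.45 to 2.02, adjusted p = 0.0698). It passed with the replicate block (1.48, adjusted p = 0.00764) and on the value table (2.78, adjusted p = 0.017). Klf2 differed by 0.15 (-0.09 to 0.39, adjusted p = 0.507). For all 3 genes the CD4 values lay above both γδ values, as for 23.2% of all genes. Within series B the differences were 1.63 for Ccr7, 0.92 for S1pr1 and 0.14 for Klf2.

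DN against CD4 cells gave no call in these genes among the 10 arrays, with wide intervals. Ccr7 differed by -1.15 (95% interval -1.85 to -0.44, adjusted p = 0.0552), S1pr1 by -0.47 (-0.87 to -0.08, adjusted p = 0.146) and Klf2 by -0.07 (-0.28 to 0.15, adjusted p = 0.784). For Ccr7 and S1pr1 all 3 DN values lay below all 3 CD4 values, which was so for 13.9% of all genes, and 5.54% of all genes were called higher in CD4 and 5.06% in DN. With the replicate block the same differences of Ccr7 and S1pr1 passed (adjusted p = 0.00897 and 0.0354), and without CD4 1 the difference of Ccr7 was -1.54 (adjusted p = 0.000111). Within series B the differences were -1.45 for Ccr7, -0.57 for S1pr1 and -0.16 for Klf2.

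For DN vs γδ and CD4 vs CD8, 0 of 6 tests among the 10 arrays passed limma's test. DN and γδ cells differed by 0.09 in Ccr7 (95% interval -0.70 to 0.88), 0.32 in S1pr1 (-0.13 to 0.76) and 0.09 in Klf2 (-0.15 to 0.32), with adjusted p of 0.95, 0.6 and 0.816, where 0.968% of all genes passed. CD4 and CD8 cells differed by -0.41 in Ccr7 (-1.20 to 0.37), -0.42 in S1pr1 (-0.86 to 0.03) and -0.18 in Klf2 (-0.42 to 0.06), with adjusted p of 0.627, 0.313 and 0.437, where 5.39% of all genes passed. These intervals leave room for differences of Ccr7 above 1 on the log2 scale between CD4 and CD8 cells, so the fractions are not shown to be alike. The S1pr1 values of DN and γδ did not overlap, and neither did the Klf2 values of CD4 and CD8, with CD8 higher, as in 19.6% of all genes. With replicates 2 and 3 alone, Ccr7 passed in DN vs γδ (0.18, adjusted p = 0.0489) and Klf2 in CD4 vs CD8 (-0.20, adjusted p = 0.0365). In that setting 2052 and 3981 of 16942 genes passed in these comparisons. Without CD4 3, S1pr1 passed in CD4 vs CD8 (-0.62, adjusted p = 0.0293). By mean log2 signal over the 10 arrays the order was γδ, DN, CD4 and CD8 for each of the 3 genes. As labelled, DN was lowest and CD4 highest for Ccr7 (6.19 and 7.33) and S1pr1 (9.07 and 9.54), and within series B Klf2 was slightly lower in DN than in γδ (-0.025). Among replicates 2 and 3 alone, Ccr7 was nearly level in CD4 and CD8 cells (206 and 189 against 197 and 202 on the value table, log2 difference -0.022).

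**Figure D2:**
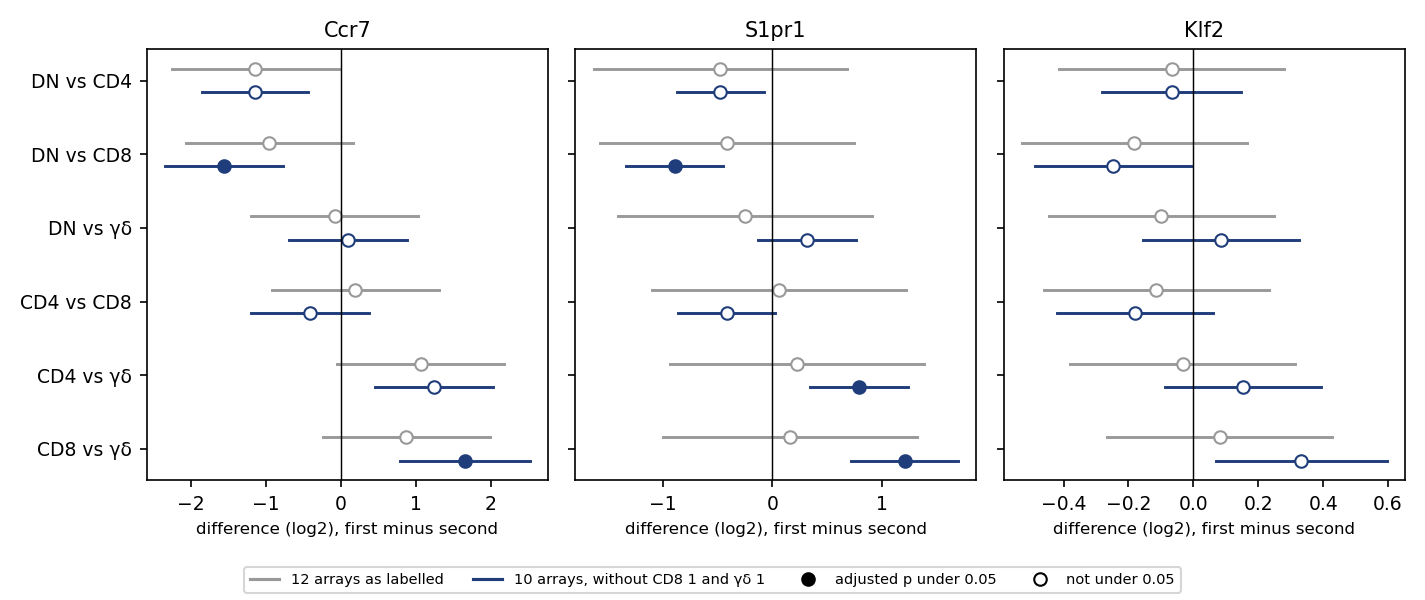
Log2 differences of Ccr7, S1pr1 and Klf2 (x axis, first fraction minus second) in the 6 comparisons (y axis), with 95% intervals as lines. Grey is the fit of 12 arrays as labelled and blue the fit of 10 arrays without the libraries labelled CD8 1 and γδ 1, and filled points have an adjusted p under 0.05. The 5 filled points, all blue, are Ccr7 and S1pr1 in DN vs CD8 and in CD8 vs γδ and S1pr1 in CD4 vs γδ.

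Other genes of these pathways were read from lists without the libraries labelled CD8 1 and γδ 1, since as labelled 1 gene of the entry, egress and Klf2 lists was called in all 6 comparisons together (Plpp3, an S1P phosphatase, 0.24 higher in DN than in CD4, adjusted p = 0.0371). In the lymph node entry list, 1 of 15 genes was higher in CD8 than in DN and 0 were lower, against 6.95% and 5.98% of all genes. That gene was Ackr4, a scavenger of CCL19 and CCL21 (log2 difference -0.49 ± 0.07, SE, adjusted p = 0.00428). The median difference of the list was -0.11, against -0.01 over all genes. Between DN and CD4, 0 of the 15 were called, against 5.06% of all genes higher in DN and 5.54% higher in CD4.

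In the list of S1P and egress, 2 of 16 genes were higher and 2 lower in DN than in CD8, against 5.98% and 6.95% of all genes. Between DN and CD4, 1 of the 16 was called in each direction, near the 5.06% and 5.54% of all genes. Sgpl1, the lyase that degrades sphingosine 1-phosphate, was lower in DN than in CD4 (-0.41 ± 0.05, adjusted p = 0.00313) and lower in γδ than in CD8 (0.35 for CD8 minus γδ, adjusted p = 0.0226). Plpp3 and Plpp1, which dephosphorylate S1P, were higher in DN than in CD8 by 0.18 (adjusted p = 0.026) and 0.41 (adjusted p = 0.0373). Gnai3, an inhibitory G protein subunit through which S1PR1 and CCR7 signal, was lower in DN than in CD8 (-0.77, adjusted p = 0.0367). A pair of genes was picked for its role after its values were seen. S1pr4, another S1P receptor of lymphocytes, had a log2 signal of 5.89 to 6.07 in all 4 arrays of series H. In series B it had 6.98 and 7.07 in DN, 7.75 and 7.69 in CD4, 7.85 and 7.82 in CD8, and 6.80 and 6.93 in γδ, and its difference between DN and CD8 was -1.18 (adjusted p = 0.247). Cd69, whose product removes S1PR1 from the surface, had 7.24 to 7.86 in series H and 6.84 to 7.08 in series B, with a difference of 0.25 between DN and CD8 (adjusted p = 0.619). That direction rests on DN 1, of series H (7.81): within series B Cd69 had 6.89 and 6.84 in DN and 6.87 and 6.98 in CD8.

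Of 17 genes on the list of factors around Klf2, 5 were higher and 2 lower in CD8 than in DN, against 6.95% and 5.98% of all genes. The log2 signal of Il7r, the receptor chain for interleukin 7, was 6.31, 6.65 and 6.61 in the DN arrays and 8.42 and 8.51 in CD8 2 and CD8 3, and the DN values stood below those of every other fraction. Its difference, DN minus CD8, was -1.94 ± 0.11 (SE, adjusted p = 4.49e-05), and DN minus CD4 was -1.11 ± 0.09 (adjusted p = 0.000369). Pik3ip1, a brake on PI3 kinase, differed between DN and CD8 by -1.56 ± 0.10 (adjusted p = 0.000108). Mef2c went the other way, at 2.08 ± 0.26 (adjusted p = 0.00247), and it is also a gene of B cells, whose markers are given below. Between DN and CD4, 3 of the 17 were higher in CD4 and 2 in DN, against 5.54% and 5.06% of all genes. Foxo1, picked for its role after its values were seen, differed between DN and CD8 by -1.10 (adjusted p = 0.0317).

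**Figure D3:**
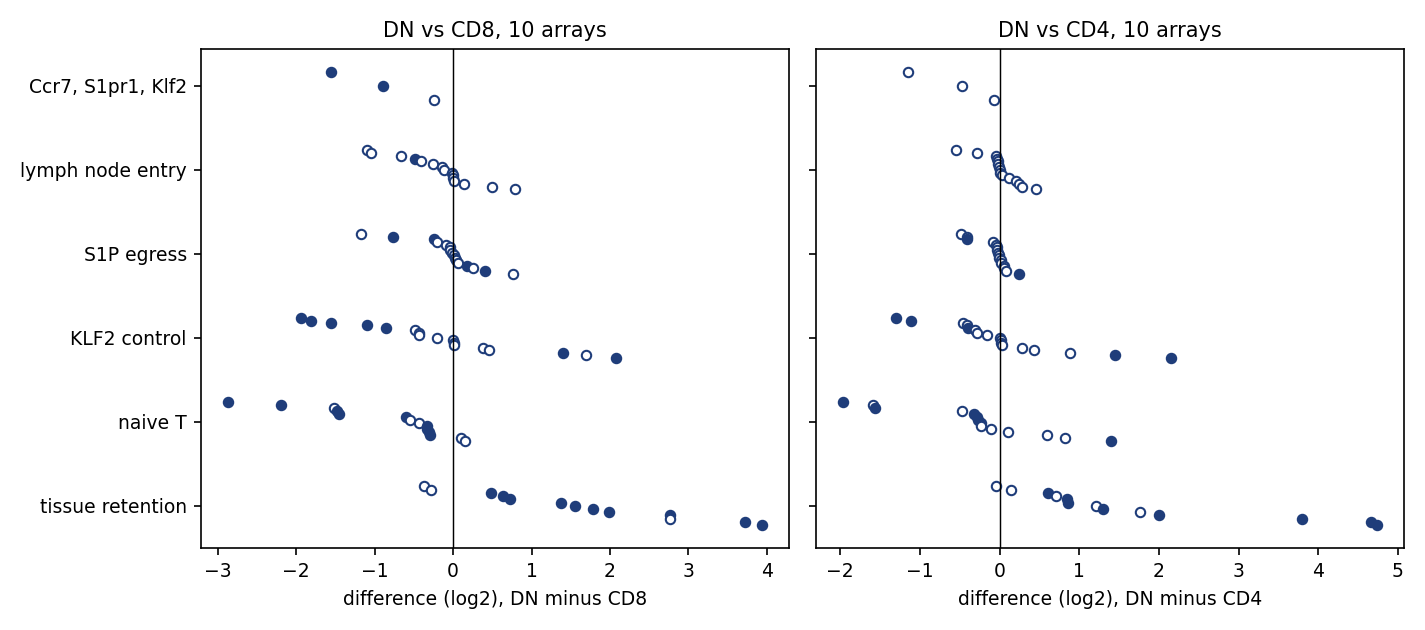
Log2 differences of single genes (points, x axis) without the libraries labelled CD8 1 and γδ 1, for DN minus CD8 and DN minus CD4, by gene list (y axis), with filled points at an adjusted p under 0.05. In DN vs CD8 the naive T genes called lie below 0 (9 of 14) and the tissue retention genes called lie above 0 (10 of 13), while 1 of 15 entry genes is called, below 0.

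Genes of naive T cells went with Ccr7 and S1pr1, and genes of tissue retention went against them. Of 14 naive T genes, 9 were higher and 0 lower in CD8 than in DN (median -0.49, against -0.01 over all genes). Of all genes, 6.95% were called higher and 5.98% lower in CD8. As labelled 0 of the 14 were called there, where 0.0177% of all genes passed. Lef1, a transcription factor of naive T cells, differed by -2.87 ± 0.15 (SE, adjusted p = 3.75e-05), Satb1, a chromatin organiser, by -1.45 ± 0.09 (adjusted p = 8.68e-05), and Dapl1 by -0.60 ± 0.05 (adjusted p = 0.000359). Between DN and CD4, 6 were higher in CD4 and 1 in DN, against 5.54% and 5.06% of all genes. As labelled, the 1 call between DN and CD4 was Txk, a T cell kinase, higher in DN (1.4, adjusted p = 0.0138). Of 13 retention genes, 10 were higher in DN than in CD8 and 0 lower (median 1.55), against 5.98% and 6.95% of all genes. Cd160, a receptor of intraepithelial T cells, differed by 1.55 ± 0.06 (adjusted p = 7.12e-06), Cdh1, which encodes E-cadherin, by 0.73 ± 0.06 (adjusted p = 0.000315), and Ahr, the aryl hydrocarbon receptor, by 1.99 ± 0.21 (adjusted p = 0.00107). Against CD4, 8 were higher in DN and 0 lower, where 5.06% and 5.54% of all genes were. Among the 8 was Itgae, the αE integrin, higher by 3.80 ± 0.19 (adjusted p = 2.65e-05). As labelled, 2 of the 13 were called higher in DN than in CD4 and 0 were called between DN and CD8. Of all genes, 2.28% and 0.0177% passed in these comparisons as labelled. Between DN and γδ, 0 genes of the naive T or retention list were called, where 0.968% of all genes passed, so this does not show the fractions to be alike.

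Markers of other cell types were read in the same arrays. The mean log2 signal of 16 B cell genes was 8.03 to 8.56 in DN and 8.22 and 8.26 in γδ 2 and γδ 3, against 6.57 to 6.75 in CD4 and 6.34 and 6.35 in CD8 2 and CD8 3. The intensities of the 16 genes on the value table summed to 15760 to 17303 in DN, 12544 and 12546 in γδ 2 and γδ 3, 3064 to 3733 in CD4 and 843 and 935 in CD8 2 and CD8 3. Between DN and CD8, 12 of the 16 were higher in DN and 0 lower, with Fcrla at 4.04, Blnk at 5.17 and Ms4a1 at 4.82. Of all genes, 5.98% were called higher and 6.95% lower in DN there. Between DN and CD4, 12 were higher in DN and 1 in CD4, against 5.06% and 5.54% of all genes. As labelled, 0 of the 16 were called between DN and CD8 and 1, Ebf1, between DN and CD4 (0.38 higher in DN, adjusted p = 0.0326). The 1 gene higher in CD4 was Cxcr5, singled out after its values were seen, a chemokine receptor of B cells and of follicular helper T cells. Cxcr5 alone had an intensity of 2480 to 2505 in the CD4 arrays, most of their sum, against 597 to 944 in DN. Without CD8 1 and γδ 1, B cell genes were high in the fractions in which Ccr7 and S1pr1 were low. Of the 16 genes, 1 was not listed above background in each of CD8 2, CD8 3, CD4 2 and CD4 3. Their part in these differences was not tested. Of 10 intestinal epithelium genes, 5 were higher in DN than in CD8 and 0 lower. Krt18 (0.96) and Fabp2 (1.13) had the smallest adjusted p by limma. Of 8 dendritic cell and macrophage genes 2 were higher and 1 lower (Itgax 2.41, Siglech 0.29 and Csf1r -0.43). For all genes these shares were 5.98% higher and 6.95% lower in DN, and as labelled 0 genes of either list were called. The parts of these lists were not tested either. Endothelial cells also express S1pr1 and Klf2. Of 15 endothelial and stromal genes, 0 were called between DN and CD8 or between CD8 and γδ by limma, where 2190 and 1248 of 16942 genes were. Between DN and CD4, 1 (Egfl7) was called, where 1796 of all genes were. The mean log2 signal of the 15 genes was 6.09 to 6.20 in all 12 arrays. Cdh5 and Kdr, endothelial markers picked after their values were seen, were both highest in CD8 3. Cdh5 stood at 5.77 to 5.93. Kdr had 6.67 in CD8 3 and 6.09 to 6.28 in the other arrays. The part of endothelial cells was not tested. Of 13 dissociation stress genes, 2 were higher and 1 lower in CD8 than in DN, against 6.95% and 5.98% of all genes. As labelled, 0 of the 13 were called there. Their mean was 7.35 to 7.48 in CD4, 7.11 to 7.43 in DN and 6.97 and 6.98 in CD8 2 and CD8 3. The highest CD4 and DN values were those of CD4 1 and DN 1, of series H. Within series B the mean was 7.36 and 7.35 in CD4 and 7.11 and 7.12 in DN.

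**Figure D4:**
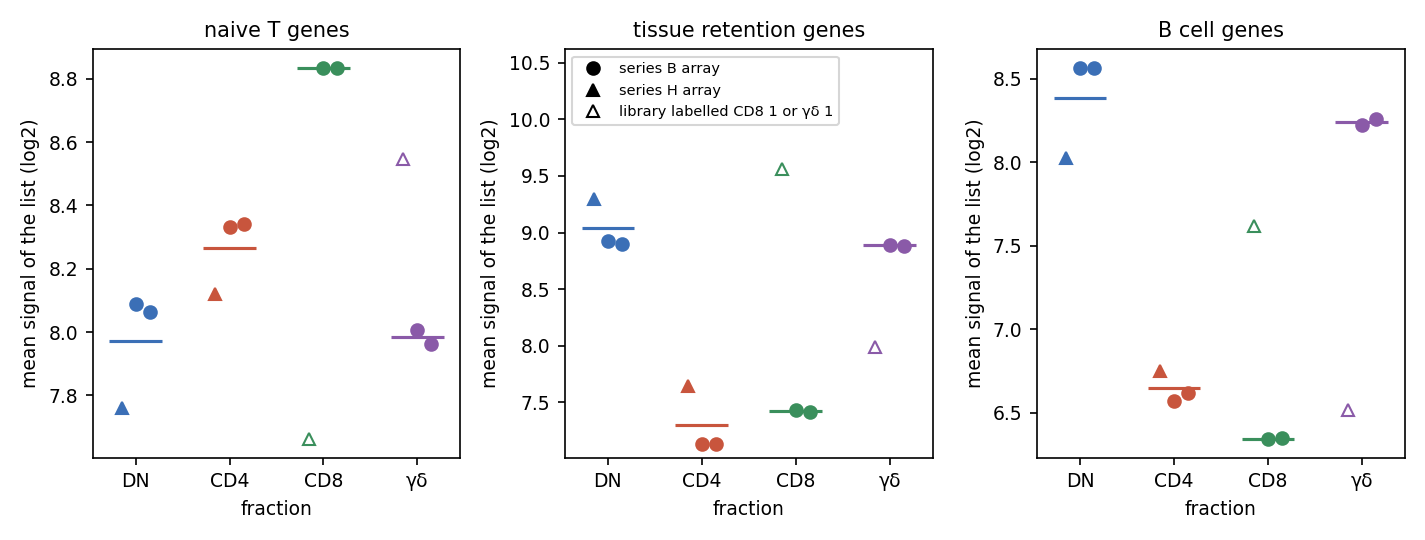
Mean log2 signal (y axis) of 14 naive T, 13 tissue retention and 16 B cell genes in each array, by fraction (x axis), with symbols as in the plot of the members by array and bars for means without the open triangles. Naive T genes are highest in CD8 2 and CD8 3 (8.83), and retention and B cell genes are high in DN and in γδ 2 and γδ 3.

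The profiles most like those of Ccr7 and S1pr1 over the 12 arrays were found by the root mean square difference of mean-centred log2 signal, so that a smaller value means a more similar profile. For Ccr7 they were Sit1, an adaptor of T cell receptor signalling (0.19), Tmem98 (0.21), Nup210l (0.23), the DNA damage kinase gene Atr (0.25) and Il6st, the gp130 chain of the interleukin 6 receptor (0.26). The log2 signal of Sit1 was 5.82 to 6.24 in DN, 6.47, 7.84 and 7.82 in CD4 1 to 3 and 8.10 and 8.18 in CD8 2 and CD8 3, so it shared the low CD4 1. For S1pr1 they were Apex1, a DNA repair gene (0.23), Gramd3 (0.25), Dglucy (0.25), Slc7a5, an amino acid transporter (0.26), and Hsd11b1 (0.27). Of the members themselves, Ccr7 and S1pr1 differed by 0.51, Ccr7 and Klf2 by 0.69 and S1pr1 and Klf2 by 0.47. The 12 arrays share fractions and series, so likeness describes these arrays alone. Klf2 was left out because its range on the normalised log2 scale, which the offset narrows, was under 1.

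**Figure D5:**
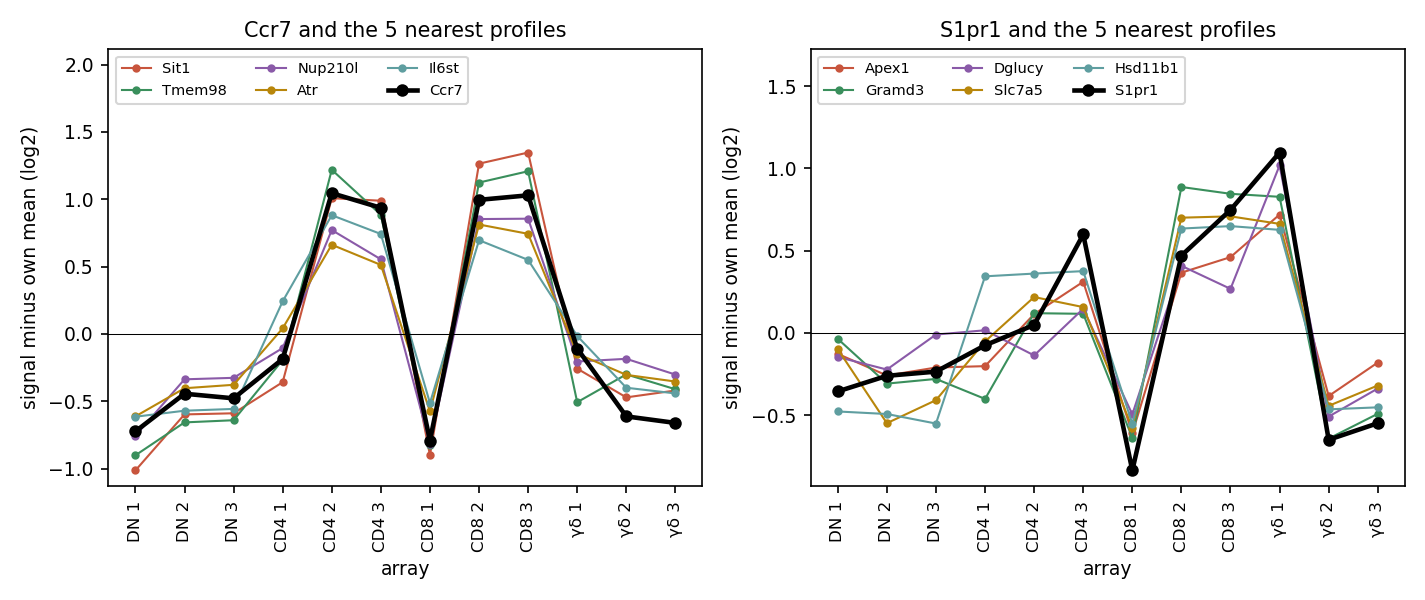
Log2 signal minus each gene's own mean (y axis) over the 12 arrays (x axis) for Ccr7 and for S1pr1 (black) with the 5 nearest profiles (colours). The Ccr7 group peaks in CD4 2, CD4 3, CD8 2 and CD8 3, and the S1pr1 group peaks in CD8 2, CD8 3 and the library labelled γδ 1 and is lowest or nearly so in the library labelled CD8 1.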

How the data were processed

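Per the file headers, each array's deposited file gives spot intensity as a median at 635 nm, scanned at 3 gains and neither background corrected nor normalised. The deposited value table holds intensity on a linear scale. Its values rise in a straight line with spot signal from 0 at 58.5 to 62.1 units, with a median of 25 and empty cells for spots not above background; how the authors made it is not given in the sources used here. limma 3.58.1 in R 4.3.3 applied normexp with an offset of 50 to the spot medians, then log2 and quantile normalization. 25 probes marked by the scanner software were left out, and 16942 genes were tested: a gene needed a listed value in every array of 1 or more fractions, and its brightest probe stood for it. lmFit and eBayes fitted 4 fraction means, with two-sided tests and p-values adjusted by Benjamini-Hochberg over all genes within a comparison. Tests were tried on simulated data. Figures used Python 3.11.15 and matplotlib 3.10.9.

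The members, the gene lists, the tests and the libraries left out were chosen with earlier results of these data known. Text names the members, up to 3 called genes of a list with the smallest adjusted p in a comparison, and the 5 nearest profiles of a member with a range of at least 1; the others named are said to be picked after their values were seen. After the fraction means were taken off, arrays of the same replicate number in different fractions correlated above 0.1 across genes in 18 of 18 pairs (0.100 to 0.735). The number goes with the array series, so pairing and series cannot be told apart. Within a fraction, the correlation of replicate 2 with replicate 3 was 0.997 to 0.998.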

Additional observations from a re-analysis of the deposited data

How the results depend on the processing

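Dim signal, the 2 arrays left in CD8 and γδ, and the shared spread limit these results: Ccr7 in DN and γδ, and to a lesser degree Klf2, lie near the median spot, where the offset narrows differences, and runs that leave out 1 of the last 2 arrays of a fraction assume that the lone one varies like the others. The alternatives within the 10 arrays were chosen after seeing the data. On the value table the median of all genes moved to 0.11 in DN vs CD8, 0.20 in DN vs γδ and 0.19 in CD4 vs γδ among the 10 arrays, and the differences of Ccr7 there were -2.92, 0.49 and 2.78. Of 18 tests among the 10 arrays, 5 passed in the main setting, 7 on the value table, 3 with median scaling, 5 without background correction, 4 without the filter, 9 with the array series as a block, 10 with the replicate block and 11 with replicates 2 and 3 alone. Over all 16942 genes the calls also rose in every comparison with either block and with replicates 2 and 3 alone. In DN vs CD8 they were 2190 in the main setting, 4485 with the series block and 4101 with the replicate block. With replicates 2 and 3 alone they were 5517.

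With replicates 2 and 3 alone, the log2 differences in DN vs CD4, DN vs CD8, DN vs γδ, CD4 vs CD8, CD4 vs γδ and CD8 vs γδ were -1.45, -1.47, 0.18, -0.022, 1.63 and 1.65 for Ccr7. They were -0.57, -0.86, 0.35, -0.29, 0.92 and 1.21 for S1pr1 and -0.36 (DN vs CD8), -0.025 (DN vs γδ), -0.20 (CD4 vs CD8), 0.14 (CD4 vs γδ) and 0.33 (CD8 vs γδ) for Klf2. Leaving out CD8 1 and γδ 1 turned the sign of differences that were not called: DN vs γδ became 0.088, 0.32 and 0.085 for Ccr7, S1pr1 and Klf2, CD4 vs CD8 became -0.41 and -0.42 for Ccr7 and S1pr1, and CD4 vs γδ became 0.15 for Klf2. It brought calls at -1.56 and -0.89 (DN vs CD8) and 1.65 and 1.21 (CD8 vs γδ) for Ccr7 and S1pr1 and at 0.79 for S1pr1 (CD4 vs γδ). As labelled, Klf2 in CD4 vs γδ turned to 0.036 on the value table and 0.037 with median scaling.

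Among the 10 arrays, Ccr7 gained a call in DN vs CD4 on the value table (-2.29, adjusted p = 0.0199) and with the series or the replicate block (-1.15, adjusted p = 0.00356 and 0.00897). It gained one in CD4 vs γδ on the value table (2.78) and with either block (1.48). S1pr1 gained one in DN vs CD4 with the replicate block (-0.47). Klf2 gained calls with either block in DN vs CD8 (-0.31) and CD8 vs γδ (0.33). Calls were lost for S1pr1 in CD4 vs γδ with median scaling (0.82) and without the filter (0.79), and for Ccr7 in CD8 vs γδ with median scaling (1.65). The replicate block changed no other call of the members. The cause of these changes was not tested.

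Leaving out 1 of the 12 arrays gave -1.56 to -0.65 for Ccr7 in DN vs CD8, called only without the library labelled CD8 1 (adjusted p = 0.0346). For Klf2 in DN vs CD4 it gave -0.18 to 0.0004. In DN vs γδ it gave -0.19 to 0.088 for Ccr7, -0.56 to 0.32 for S1pr1 and -0.23 to 0.085 for Klf2. In CD4 vs CD8 it gave -0.41 to 0.58 for Ccr7 and -0.42 to 0.37 for S1pr1. In CD4 vs γδ it gave -0.083 to 0.79 for S1pr1 and -0.16 to 0.15 for Klf2, and in CD8 vs γδ -0.15 to 0.73 for S1pr1 and -0.045 to 0.27 for Klf2. Leaving out 1 of the 10 arrays gave -1.54 to -0.92 (DN vs CD4), -1.61 to -1.47 (DN vs CD8), -0.64 to -0.022 (CD4 vs CD8), 1.01 to 1.63 (CD4 vs γδ) and 1.63 to 1.67 (CD8 vs γδ) for Ccr7. For S1pr1 it gave -0.61 to -0.27 (DN vs CD4), -1.03 to -0.75 (DN vs CD8), -0.62 to -0.28 (CD4 vs CD8), 0.59 to 0.92 (CD4 vs γδ) and 1.07 to 1.35 (CD8 vs γδ). For Klf2 it gave -0.18 to 0.0004 (DN vs CD4), -0.36 to -0.18 (DN vs CD8), -0.025 to 0.15 (DN vs γδ) and 0.27 to 0.40 (CD8 vs γδ). Calls were gained without CD4 1 for Ccr7 in DN vs CD4 and CD4 vs γδ (adjusted p = 0.000111 and 0.000174), without DN 1 for Klf2 in DN vs CD8 and CD8 vs γδ (0.00618 and 0.0101), and without CD4 3 for S1pr1 in CD4 vs CD8 (0.0293).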
